A study of Eumeta variegata with 6 samples.

Results

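Endoplasmic reticulum protein processing was followed through 54 assembled sequences of the bagworm moth Eumeta variegata, out of 41283 in the deposited table. They are the sequences that the authors' KEGG annotation placed in the pathway Protein processing in endoplasmic reticulum, 75 in all, less 21 whose protein names spoke of heat shock, DnaJ, crystallin, lethal(2)essential, ubiquitin, cullin or proteasome proteins. No measured value entered that rule, although the members were chosen with earlier results of these data known. RNA of heads was sequenced in 3 male and 3 female libraries of stranded mRNA, and levels are FPKM, fragments scaled by sequence length and library total. Neither strain, age, stage nor treatment is labelled for either sex, and it is not said whether the replicates came from different animals, so the p-values measure only the spread among these libraries, which may be technical.

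Proteins that are secreted or built into membranes enter the endoplasmic reticulum through the Sec61 channel. There they receive a glycan from the oligosaccharyltransferase, fold with the help of lectin chaperones, BiP and disulfide isomerases, and leave in vesicles coated by COPII. Chains that fail to fold are pulled back to the cytosol by the ATPase VCP, called TER94 in Drosophila, and are degraded. Misfolded protein in the lumen also sets off the unfolded protein response, a signal from the organelle that slows translation and raises chaperone genes. Insect fat body, glands and epidermis are known as heavily secretory tissues, and a head holds some of each beside brain, muscle and eye.

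Library sums lay between 480295 and 492028 FPKM, and the read depth behind a value is unknown. Names of assembled sequences end in 1 or 2, and by the share of sequences listed at 0 within each ending the libraries form 2 sets, male 2, male 3 and female 2 against male 1, female 1 and female 3. Of the 54 members, 25 end in 1 and 29 in 2. Tissue lists were matches by protein name and may hold proteins made in other tissues too. Their counts are to be read beside the 4.4% of all sequences tested that were higher in males and the 2.7% higher in females. Of 19 nerve cell names tested, 2 were higher in males (Neurexin-4 and synaptotagmin 1) and 1 in females (CUGBP Elav-like family member 1). The last was matched by the word Elav. The nerve cell list summed to 253.5 to 273.8 FPKM in males and 237 to 247.6 in females. Of 20 eye names 1 was higher in males, an arrestin domain-containing protein, and no opsin or rhodopsin was called. Many eye names were arrestin domain proteins, and the list summed to 129 to 132 FPKM in males and 108 to 119 in females. Of 17 muscle names, which include myosins named non-muscle, 3 were higher in each sex, with overlapping sums of 844 to 887 and 820.1 to 942 FPKM. Of 25 hemocyte names, which include phenoloxidase-activating factors, 2 were higher in males and 0 in females. Their sums overlapped, at 267 to 282.3 FPKM in males and 223 to 281.9 in females. The 1 silk and salivary gland name, a seroin, was not called. Cuticle proteins, markers of the epidermis, were higher in males for 26 of 42 tested and in females for none, and their summed level was 2260 to 2478 FPKM in males and 550.4 to 668.6 in females. Fat body names, which include vitellogenin receptors, were higher in females for 3 of 9 tested and in males for none. Their sums were 35.04 to 41.8 FPKM in males and 95.6 to 115 in females. Most of that gap lay in an arylphorin, at means of 0.072 FPKM in males and 27.04 in females, and an apolipophorin-3, at 3.05 and 38.5. Called or not, 4 of the 9 leaned to males and 5 to females. The arylphorin most abundant in males had means of 20.1 FPKM in males and 17.96 in females. In bulk heads, fewer cells of a type and less RNA per cell cannot be told apart, and the part of these tissues in the results below was not tested.

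The members were abundant sequences. Their median level over the 6 libraries was 25.6 FPKM, against 2.51 for all sequences tested and 9.85 for the 2272 tested sequences with a KEGG orthology number. Of the 53 tested, 34 lay at or above the 90th percentile of all tested and 21 at or above the 95th. The most abundant were Sec61 gamma at 359 FPKM in males against 411 in females, SKP1 at 268 and 286, calreticulin at 212 and 154, and an ATF4-type transcription factor at 160 and 145. The 54 members summed to 2665 to 2803 FPKM in males and 2798 to 3090 in females, so the male and female ranges overlapped only narrowly, with male 1 and female 2 nearly equal. Within a sex most members varied little: the pooled coefficient of variation was under 10% for 36 of 53 and above 20% for 7.

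**Figure D1:**
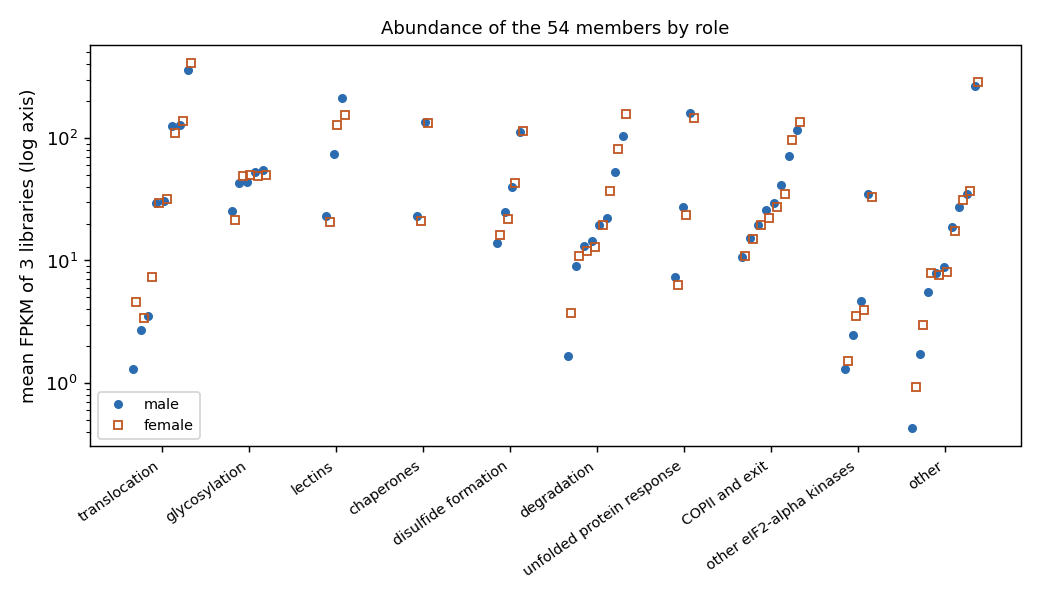
Mean FPKM of 3 libraries on a log axis for each of the 54 members, grouped by role, with filled circles for males and open squares for females. Levels span from under 1 FPKM (HSP18.6) to 359 and 411 FPKM (Sec61 gamma), and for most members the male and female symbols nearly coincide.

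The question was which parts of this machinery differ between male and female heads. Calreticulin, the soluble lectin chaperone, was higher in males, while calnexin, its membrane-bound relative, and TER94, NPL4, RAD23 and BAP31 were higher in females. A sequence was tested if it reached 1 FPKM in at least 3 libraries, which 53 of the 54 members did, and fold changes are means of log2(FPKM + 1) in males minus females. With limma's moderated test, Benjamini-Hochberg adjusted over all 35198 sequences tested and a threshold of 0.05, 1 member was higher in males and 5 in females. Among all sequences 4.4% were higher in males and 2.7% in females, 7.11% together. Of the 2272 tested sequences with a KEGG orthology number 12.6% were called, 149 higher in males and 137, or 6.03%, in females. The called members are 1.89% and 9.43% of the 53, together 11.3%. An unadjusted p below 0.05 in limma was found for 23 of the 53, or 43.4%, beside 23.3% of all sequences, a set with lower FPKM. With so few members this is a description and not a test of the pathway. With median-of-ratios scaling no member was higher in males and 6 were higher in females, while the calls over all sequences moved from 1549 in males and 952 in females to 1324 and 1330. Without male 1, male 2 or female 2 the calls higher in females numbered 3, without male 3 they numbered 4, and the male call ended without any 1 of the libraries but female 1, where it became 2.

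Of the 53 members, 26 had a fold change above 0 and 27 below, with a median of -0.01 beside 0.05 for all sequences tested. With median-of-ratios scaling these medians were -0.08 and -0.01. Changes were small: 39 of 53, or 73.6%, were under 0.25 in absolute log2 fold change, against 42.6% of all sequences tested and 59.9% of those with an orthology number, sets with lower FPKM. The male and female values did not overlap for 26 members, or 49.1% of the 53, with 11 higher in males and 15 in females. Across all sequences tested that held for 30.2%, made up of 18.2% higher in males and 12% higher in females.

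**Figure D2:**
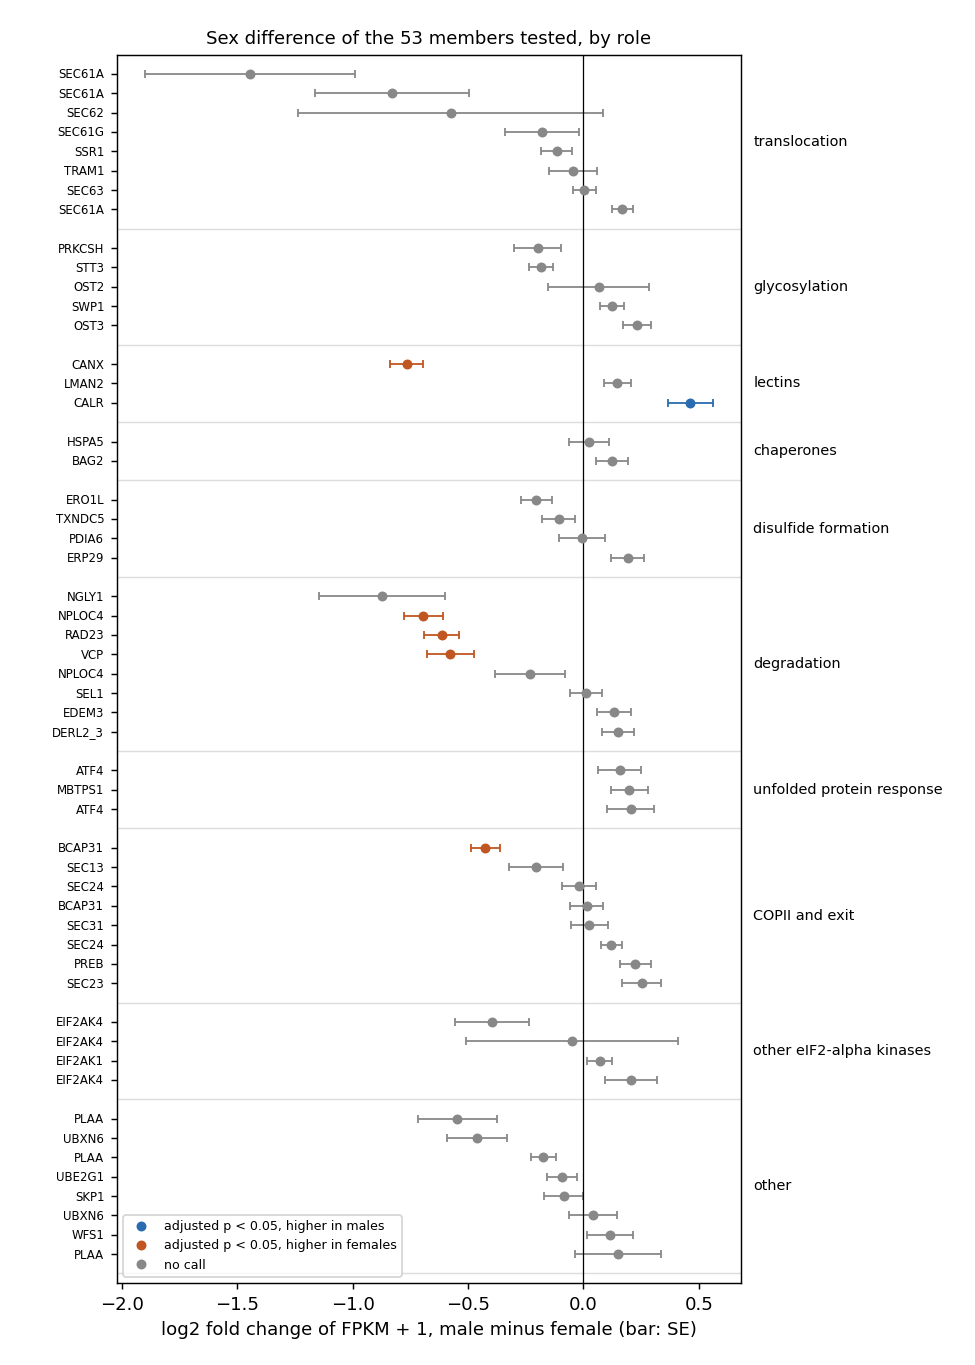
Log2 fold change (male minus female, on log2(FPKM + 1), with limma's standard error) for the 53 members tested, grouped by role and named by KEGG gene name. The points of the 1 member higher in males (CALR, 0.46) and the 5 higher in females (CANX, NPLOC4, RAD23, VCP and BCAP31, -0.77 to -0.42) are coloured, and most of the others lie within 0.25 of 0.

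Calnexin and calreticulin hold newly made glycoproteins by a trimmed glycan until they fold. Calnexin (TRINITY_DN1012_c0_g1_i6_2) stood at 75.7, 72.7 and 73.1 FPKM in males 1, 2 and 3 and at 115, 127 and 138 in females 1, 2 and 3. The 3 males were close together and every female was well above them. The means were 73.8 ± 1.6 and 126.6 ± 11.3 FPKM (SD, n = 3 each), for a log2 fold change of -0.77 (SE 0.07; adjusted p = 0.0039 by limma), or 1.70-fold higher in females. It kept its call under every alternative run, with an adjusted p of at most 0.036.

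Calreticulin (TRINITY_DN10008_c0_g1_i5_2), which also binds calcium in the lumen, had 216, 211 and 209 FPKM in males 1, 2 and 3. The females had 176, 152 and 135 FPKM. The sexes did not overlap, but the females were spread more widely than the males. The means of 212 ± 4 and 154 ± 20 FPKM (SD, n = 3 each) gave a log2 fold change of 0.46 (SE 0.10; adjusted p = 0.042 by limma). The call remained without female 1, but it ended without any other 1 of the libraries (adjusted p up to 0.13) and with median-of-ratios scaling (0.39, adjusted p = 0.074) or the library sets as a model term (0.47, adjusted p = 0.094).

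Because the pair went opposite ways, the ratio of calreticulin to calnexin within each library, chosen after their values were seen, was 2.86, 2.90 and 2.87 in males 1, 2 and 3. It was 1.53, 1.20 and 0.98 in females 1, 2 and 3. Neither sequence overlapped between the sexes and their directions were opposite, so a ratio without overlap was fixed in advance. The ratio is therefore a description and adds no support to either call. Calreticulin thus exceeded calnexin in every male and in 2 of the 3 females. Relative to BiP, the main lumenal chaperone, calreticulin stood at 1.55 to 1.62 in males and 1.14 to 1.18 in females. A ratio within a library is the same under any scaling between libraries. The third lectin, a VIP36-like cargo receptor of the early secretory route, had 22.9 ± 0.7 and 20.6 ± 1.0 FPKM and was not called (log2 fold change 0.15, adjusted p = 0.19).

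**Figure D3:**
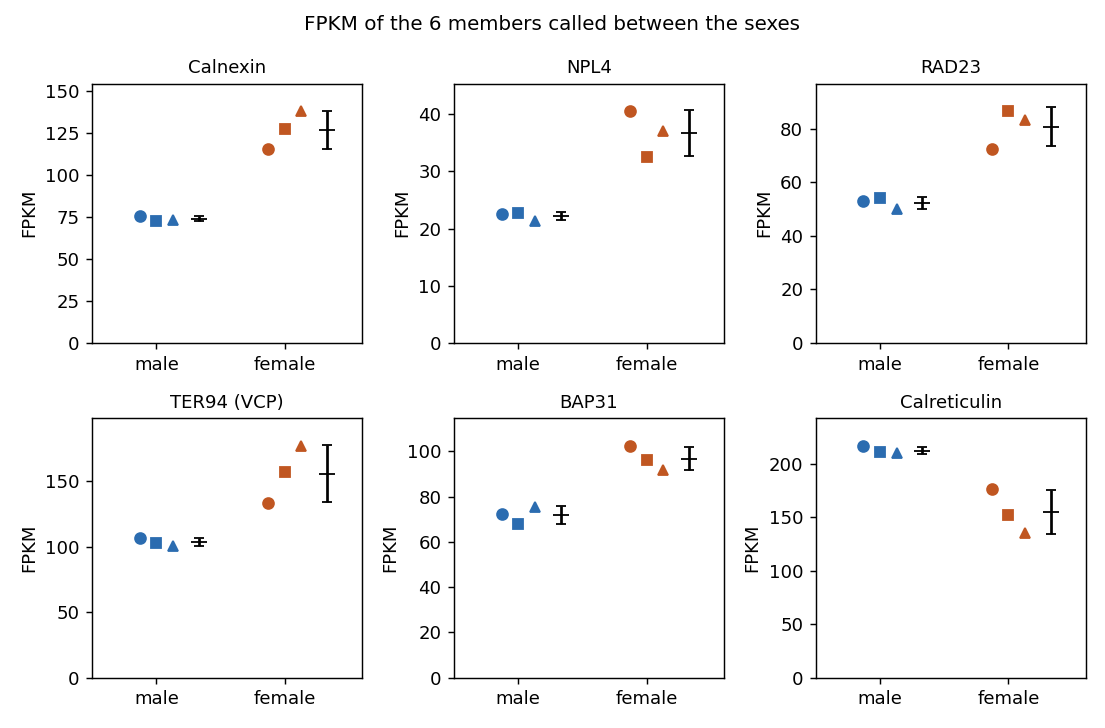
FPKM of each library for the 6 called members, with circles, squares and triangles for replicates 1, 2 and 3 and a bar for the mean and SD of 3 libraries. Male and female points do not overlap in any panel, and only calreticulin is higher in males (209 to 216 against 135 to 176 FPKM).

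**Figure D4:**
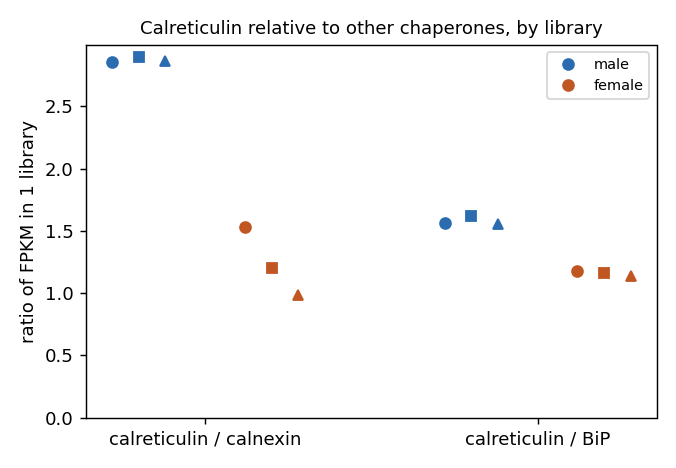
Ratio of calreticulin to calnexin and to BiP within each library, with circles, squares and triangles for replicates 1, 2 and 3. The male ratios to calnexin lie between 2.86 and 2.90 and the female ratios between 0.98 and 1.53, a separation fixed by the values of the 2 sequences.

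Retrotranslocation and degradation held 3 of the 5 calls higher in females, among 8 members tested, and none higher in males. That is 37.5% of a list of 8, beside 2.7% of all sequences and 6.03% of those with an orthology number higher in females. Names of this role searched outside the pathway gave 1 call among 11 tested, also higher in females. PLAA and UBXN6, partners of VCP among the members, were classed outside this list and had no call. The 3 called members were the ATPase and 2 partners that handle its substrates. The other members of the group were not called: 3 had fold changes between 0.01 and 0.15 and 2 lay below 0.

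NPL4, the cofactor by which VCP grips ubiquitinated chains, was higher in females. Its main sequence (TRINITY_DN16477_c0_g1_i7_1) had 22.5, 22.7 and 21.4 FPKM in males 1, 2 and 3 and 40.5, 32.5 and 37.1 in females 1, 2 and 3. All females lay above all males, with means of 36.7 ± 4.0 and 22.2 ± 0.7 FPKM and a log2 fold change of -0.69 (SE 0.08; adjusted p = 0.0083 by limma). A second member sequence of the same name was lower, at 9.03 ± 0.56 FPKM in males against 10.9 ± 2.4 in females, and was not called (-0.23, adjusted p = 0.43). Sequences that share a name may share reads, so values of such pairs are uncertain.

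RAD23, a shuttle that brings ubiquitinated proteins to the proteasome and also serves DNA repair, showed the same order. UV excision repair protein RAD23 homolog B (TRINITY_DN3411_c0_g1_i1_2) had 52.9, 54.1 and 49.98 FPKM in males 1, 2 and 3. The females had 72.5, 86.5 and 83.2 FPKM, all above the males. The log2 fold change was -0.61 (SE 0.08; adjusted p = 0.0087 by limma), with means of 52.3 ± 2.1 and 80.7 ± 7.3 FPKM. Like calnexin, NPL4 and RAD23 were called under every alternative run, with an adjusted p of at most 0.047 each.

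TER94 itself (TRINITY_DN1511_c0_g1_i3_1) had 107, 103 and 101 FPKM in males 1, 2 and 3 and 134, 157 and 177 in females 1, 2 and 3. The males were tight and the females spread, without overlap. The means were 103.6 ± 3.1 and 156 ± 22 FPKM, a log2 fold change of -0.58 (SE 0.10; adjusted p = 0.027 by limma). Its call ended without any 1 of the males or without female 2 (adjusted p up to 0.099) and with the library sets in the model (adjusted p = 0.073), at fold changes between -0.68 and -0.48 over all alternatives.

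Among the other members of the group, SEL1L, a partner of the HRD1 ligase, had 19.5 ± 0.4 and 19.4 ± 1.6 FPKM in males and females. Derlin-2, a membrane protein of the exit route from the lumen, had 14.5 ± 0.7 and 12.9 ± 0.8 FPKM, and the mannose-trimming protein EDEM3 had 13.2 ± 0.4 and 11.9 ± 0.9. For these 3 members the male and female values overlapped and the adjusted p was 0.27 or higher. Peptide N-glycanase, which strips glycans from chains in the cytosol, had 1.11, 2.69 and 1.20 FPKM in males 1, 2 and 3 and 3.95, 3.04 and 4.24 in females 1, 2 and 3. The values did not overlap, but at this low level the log2 fold change of -0.87 had an SE of 0.27 and was not called (adjusted p = 0.12).

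COPII proteins and exit factors had 1 call among 8 members, the cargo-sorting membrane protein BAP31, higher in females. That is 12.5%, beside 7.11% of all sequences and 12.6% of those with an orthology number. The short role lists below without a call are to be read beside the same shares. B-cell receptor-associated protein 31 (TRINITY_DN4960_c0_g1_i2_1) had 72.4, 67.8 and 75.3 FPKM in males 1, 2 and 3. In females 1, 2 and 3 it had 102, 96.2 and 91.9 FPKM, above every male. The log2 fold change was -0.42 (SE 0.06; adjusted p = 0.014 by limma), and the call ended without male 1, male 2 or female 2 (adjusted p up to 0.063) or with the library sets in the model (adjusted p = 0.052). The related sequence named B-cell receptor-associated protein 29 had 19.5 ± 1.3 and 19.3 ± 1.2 FPKM, a log2 fold change of 0.01.

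The COPII coat itself had no call. Its outer cage proteins were SEC13, at 115 ± 4 FPKM in males against 134 ± 23 in females (log2 fold change -0.21, adjusted p = 0.36), and Sec31A, at 15.3 ± 1.4 and 15.01 ± 0.73 FPKM. SEC13 was at 161 FPKM in female 1 and at 121 in each of the other 2 females, close to the 113 to 120.0 of the males. Of the inner coat, Sec23A had 41.5 ± 1.0 and 34.8 ± 3.9 FPKM (0.25, adjusted p = 0.14), Sec24C had 29.7 ± 0.8 and 27.2 ± 0.7, and Sec24A had 10.7 ± 0.2 and 10.9 ± 0.8. Prolactin regulatory element-binding protein, the name of the SEC12-type factor that loads the GTPase SAR1, had 26.0 ± 2.2 and 22.1 ± 0.3 FPKM (0.22, adjusted p = 0.11). SEC13 also belongs to nuclear pores, and its FPKM was several times that of Sec31A, its partner in the coat.

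Translocation had no call among 8 members. Sec61 gamma, a small channel subunit, had 385, 316 and 375 FPKM in males 1, 2 and 3 and 504, 336 and 392 in females 1, 2 and 3, with overlap and a log2 fold change of -0.18 (SE 0.16, adjusted p = 0.57). The main Sec61 alpha sequence, the pore itself (TRINITY_DN5759_c0_g1_i2_2), had 124.4 ± 2.3 FPKM in males against 110.6 ± 3.6 in females. Its values did not overlap, yet the log2 fold change of 0.17 (SE 0.05) had an adjusted p of 0.083. Of the helpers of the channel, translocon-associated protein alpha had 127 ± 7 and 137 ± 8 FPKM, TRAM1 had 30.7 ± 2.3 and 31.8 ± 4.1, and SEC63 had 29.7 ± 0.4 and 29.6 ± 1.3, with fold changes of -0.12, -0.04 and 0.00.

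The 3 members with the largest fold changes among the translocation sequences, none of them called, were also low and uneven. A Sec61 alpha sequence whose nearest NR match was a nematode protein (TRINITY_DN20280_c0_g1_i1_2) had 2.35, 1.56 and 0 FPKM in males 1, 2 and 3 and 4.06, 5.18 and 4.53 in females 1, 2 and 3. The females lay above the males, with a log2 fold change of -1.44 (SE 0.45, adjusted p = 0.12), which became -0.93 without male 3 and -2.65 with a pseudocount of 0.1. Another Sec61 alpha sequence (TRINITY_DN7167_c0_g1_i1_1) had 2.66, 2.84 and 5.15 FPKM against 11.3, 5.06 and 5.51, with overlap (-0.83, adjusted p = 0.20). A partial SEC62 sequence had 3.02, 5.09 and 0 FPKM in males 1, 2 and 3 and 2.78 to 4.64 in females (-0.57, adjusted p = 0.67). A listed 0 here may be a failed estimate, and the fold change of the partial SEC62 sequence turned to 0.19 without male 3 and was -1.11 without male 2 and -1.54 with a pseudocount of 0.1.

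Glycosylation had no call among 5 members. Ribophorin II, the most abundant of them, had 55.7, 54.9 and 53.1 FPKM in males 1, 2 and 3 and 47.7, 52.96 and 49.5 in females 1, 2 and 3, just without overlap (log2 fold change 0.12, adjusted p = 0.23). STT3, the catalytic subunit of the oligosaccharyltransferase, had 43.7 ± 2.0 and 49.7 ± 1.5 FPKM (-0.18, adjusted p = 0.090), and with median-of-ratios scaling it was called as higher in females. TUSC3, of its oxidoreductase subunit, had 25.3 ± 0.6 and 21.4 ± 1.4 FPKM (0.23, adjusted p = 0.078) and was called without female 1. DAD1, a small subunit, varied more within a sex, at 37.5 to 65.9 FPKM in males and 43.7 to 59.3 in females. Glucosidase 2 subunit beta, of the enzyme that trims the glycan for the lectins, had 42.6 ± 2.9 and 49.2 ± 6.2 FPKM (-0.20, adjusted p = 0.30).

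General chaperones and disulfide enzymes had no call among 2 and 4 members. BiP (TRINITY_DN5150_c0_g1_i2_2) had 138, 130.3 and 135 FPKM in males 1, 2 and 3 and 149, 131 and 119 in females 1, 2 and 3. The female values enclosed the male ones, and the log2 fold change was 0.02 (SE 0.09, adjusted p = 0.91). BAG2, a cochaperone, had 23.0 ± 1.5 and 21.0 ± 1.1 FPKM (0.12, adjusted p = 0.34).

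Protein disulfide-isomerase A6 (TRINITY_DN4127_c0_g1_i2_2) had 116, 109.8 and 112 FPKM in males 1, 2 and 3 and 131, 110.4 and 99.9 in females 1, 2 and 3. As for BiP and calreticulin, female 1 was the highest and female 3 the lowest of the females, and the fold change was -0.01. ERO1, which supplies the isomerases with oxidising power, had 13.8 ± 0.8 and 16.0 ± 0.6 FPKM (-0.20, adjusted p = 0.13). ERp29, named windbeutel in Drosophila, where it is needed for dorsoventral patterning of the embryo, had 24.9 ± 0.4 and 21.8 ± 1.9 FPKM (0.19, adjusted p = 0.17). The thioredoxin-like ERp46 had 39.9 ± 2.0 and 43.1 ± 3.4 FPKM (-0.11).

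The unfolded protein response was represented among the members by 3 sequences, none of them called. Activating transcription factor of chaperone, named in the silkworm Bombyx mori and given the ATF4 orthology number by the authors, had 164, 158 and 158 FPKM in males 1, 2 and 3 in its main sequence (TRINITY_DN1134_c0_g1_i10_1). The females had 126, 148 and 160.4 FPKM, so the sexes overlapped (log2 fold change 0.16, SE 0.09, adjusted p = 0.37). A second sequence of that name had 29.3, 29.2 and 24.2 FPKM in males and 25.5, 21.3 and 24.3 in females (0.21, adjusted p = 0.29). Site-1 protease, which makes the first cut in the sensor ATF6 in the Golgi, had 7.49, 7.48 and 7.01 FPKM in males 1, 2 and 3 and 6.34, 6.14 and 6.29 in females 1, 2 and 3. Its male values lay above the female ones, with a log2 fold change of 0.20 (SE 0.08, adjusted p = 0.21).

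The next 4 members are kinases of the translation factor eIF2-alpha that answer to other stresses. They were grouped after their names were read, and none was called. EIF2AK1, known in mammals as the heme-regulated kinase, had 34.95 ± 1.26 and 33.3 ± 1.6 FPKM. The 3 sequences of GCN2, the kinase for amino acid shortage, were low, between 1.29 and 4.68 FPKM on average, with fold changes of 0.20, -0.40 and -0.05. EIF2AK1 and ribophorin II carry the same assembler gene number, although the proteins are unrelated, so reads may have been split between them.

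The remaining 9 members stood outside the role lists. They include partners of VCP, of which PLAA and UBXN6 bind it directly. The main PLAA sequence had 28.6, 27.3 and 26.6 FPKM in males 1, 2 and 3 and 31.2, 29.6 and 32.6 in females 1, 2 and 3, without overlap (log2 fold change -0.17, adjusted p = 0.13). The lower PLAA sequences had fold changes of -0.55 (adjusted p = 0.12) and 0.15 (adjusted p = 0.70). Of 2 UBXN6 sequences, one had 5.48 ± 0.44 and 7.97 ± 1.23 FPKM (-0.46, adjusted p = 0.093) and was called without female 1, and the other had 7.93 ± 0.82 and 7.66 ± 0.63 (0.04). SKP1, an adaptor of ubiquitin ligases, had 268 ± 4 and 286 ± 31 FPKM (-0.09). The conjugating enzyme UBE2G1 had 34.6 ± 2.2 and 37.0 ± 1.8 FPKM, and wolframin, a membrane glycoprotein of the reticulum, had 18.8 ± 0.2 and 17.4 ± 2.4. HSP18.6, a small heat shock protein whose name escaped the filter, was the member not tested, at 0 to 0.77 FPKM in males and 0 to 1.599 in females.

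Many genes of this machinery carry no pathway label in the table, where only 2508 of 41283 sequences have one. Names of the same roles, searched in sequences outside the pathway, added 80 sequences, of which 77 were tested, 2 were higher in males and 3 in females. Their median log2 fold change was 0.01. The shares, 2.60% and 3.90%, stand beside 4.4% and 2.7% of all sequences. The search by name takes in some proteins of other compartments, such as cytosolic thioredoxin domain and calpain proteins.

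A second TER94 sequence (TRINITY_DN924_c0_g1_i2_2) was among them. It had 11.97 ± 1.24 FPKM in males against 23.4 ± 0.4 in females, with a log2 fold change of -0.92 (SE 0.08; adjusted p = 0.0035 by limma), and was called under every alternative run. The GTPase SAR1b, which starts the COPII coat, had 119 ± 5 and 157 ± 4 FPKM (-0.40, SE 0.05, adjusted p = 0.0095 by limma), a call that ended without male 2 (adjusted p = 0.051). The more abundant SEC62 sequence had 99.3 ± 1.9 and 120.3 ± 3.8 FPKM (-0.27, adjusted p = 0.021 by limma). Its call ended without any 1 of the males or female 2 (adjusted p up to 0.089) and with the library sets in the model (adjusted p = 0.072). Higher in males were Calpain-C, partial, of a protease-related family, with 5.76 ± 0.55 and 2.48 ± 0.07 FPKM (0.96, adjusted p = 0.011 by limma), and a Calpain-A sequence, with 36.7 ± 1.7 and 28.7 ± 2.1 (0.35, adjusted p = 0.036 by limma). The Calpain-C call ended without male 2 or male 3 (adjusted p up to 0.059). That of Calpain-A ended without any 1 of the libraries but female 1 (adjusted p up to 0.12), with median-of-ratios scaling (adjusted p = 0.068) and with the library sets in the model (adjusted p = 0.088).

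The sensors of the unfolded protein response were found only by name, and none was called. IRE1, the kinase and nuclease that splices XBP1, had 6.78 ± 0.47 FPKM in males against 7.25 ± 0.31 in females (log2 fold change -0.09). The eIF2-alpha kinase PERK, under its name translation initiation factor 2-alpha kinase 3, had 4.93 ± 0.16 and 4.56 ± 0.25 FPKM in its main sequence (0.09). The main ATF-6 alpha sequence had 14.7 ± 0.6 and 15.3 ± 0.1 FPKM (-0.05). XBP1, the transcription factor made from the spliced message, had 164.2 ± 1.3 and 148.5 ± 3.4 FPKM, without overlap (0.14, SE 0.04, adjusted p = 0.11). These totals do not show how much of the XBP1 message was spliced.

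No call fell among the other sequences found by name for disulfide formation (15 tested, log2 fold changes from -0.27 to 0.50), glycosylation (13 tested, from -0.26 to 0.71), chaperones (3 tested) and lectins (3 tested). Of these, 5, 3, 1 and 1 had an unadjusted p below 0.05 in limma. The shares were 33.3%, 23.1%, 33.3% and 33.3%, beside 23.3% of all sequences. Protein disulfide-isomerase, the most abundant sequence of its name, had 210 ± 7 and 222 ± 23 FPKM (-0.08), and isomerase A3 had 99.9 ± 6.7 and 93.4 ± 11.6 (0.10). Hypoxia up-regulated protein 1, a large lumenal chaperone, had 40.0 ± 0.6 and 43.9 ± 1.9 FPKM (-0.13, adjusted p = 0.17). The oligosaccharyltransferase subunit 1 sequence had 98.5 ± 5.5 and 118.6 ± 7.3 FPKM (-0.26, adjusted p = 0.067), and the 48 kDa subunit had 109 ± 6 and 116 ± 10 (-0.08). A second, lower calreticulin sequence had 4.18 ± 0.84 and 3.67 ± 1.07 FPKM (0.16, adjusted p = 0.72).

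Of the 21 pathway sequences that the name filter left out, 2 were higher in males and 7 in females, or 9.52% and 33.3%, beside 4.4% and 2.7% of all sequences. Among the 7 were 5 sequences named lethal(2)essential for life (a Drosophila member of the small heat shock family), with log2 fold changes down to -2.51, -2.06 and -1.83, a heat shock protein homolog (-1.34) and DnaJ homolog subfamily A member 2 (-0.34). The DnaJ call ended without male 2 or male 3 (adjusted p up to 0.063), and that of the lethal(2)essential for life sequence TRINITY_DN264_c0_g1_i8_2 (-0.91) without male 1, male 3, female 2 or female 3 (adjusted p up to 0.069). DnaJ homolog subfamily C member 1, a membrane-bound cochaperone of the reticulum, was higher in males, at 28.9 ± 2.8 against 20.05 ± 1.75 FPKM (0.51, adjusted p = 0.030 by limma). Its call ended without male 1, male 2, female 2 or female 3 (adjusted p up to 0.11) and with the library sets in the model. The other sequence higher in males was a further lethal(2)essential for life protein (0.62, adjusted p = 0.020 by limma), whose call ended without any 1 of the males or female 1 (adjusted p up to 0.079). Endoplasmin, the HSP90 of the lumen, had 97.9 ± 2.3 FPKM in males against 88.7 ± 4.5 in females and was not called (0.14, adjusted p = 0.17). The ligase HRD1 had 19.2 ± 0.4 and 18.4 ± 1.5 FPKM (0.06), and the DNAJB11-type protein, a BiP partner matched to Drosophila shv, had 46.2 ± 0.9 and 52.8 ± 3.8 (-0.19, adjusted p = 0.13).

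In neighbouring pathways the shares called were 0% of Protein export and 9.09% each of N-Glycan biosynthesis and SNARE interactions, beside 7.11% of all sequences. In Protein export limma called none of 12 sequences, with 4 (33.3%) at an unadjusted p below 0.05, beside 23.3% of all sequences. In N-Glycan biosynthesis 1 of 11 was called, polyprenol reductase, whose enzyme makes dolichol, the carrier of the glycan, higher in males at 17.8 ± 1.1 against 14.2 ± 0.2 FPKM (0.31, adjusted p = 0.040 by limma). In SNARE interactions 1 of 11 was called, Syntaxin-16, a membrane fusion protein of the Golgi, higher in females at 6.42 ± 0.13 against 4.28 ± 0.26 FPKM (-0.49, adjusted p = 0.037 by limma). Both calls ended when any 1 of the 6 libraries was left out (adjusted p up to 0.12 for each).

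The sizes of the differences were also taken within each library set; for members whose male and female values do not overlap, as in all 6 called, the direction there is fixed. In males 2 and 3 against female 2 the log2 differences were -0.79 for calnexin, -0.54 for NPL4, -0.72 for RAD23, -0.62 for TER94, -0.42 for BAP31 and 0.46 for calreticulin. In male 1 against females 1 and 3 they were -0.73, -0.76, -0.55, -0.52, -0.42 and 0.48 in the same order. These differences, of 2 libraries against 1, were not tested. Over all 53 members, 42 had the same sign in both sets, including the 26 without overlap, and with the sets as a term in the model calnexin, NPL4 and RAD23 were the members called.

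**Figure D5:**
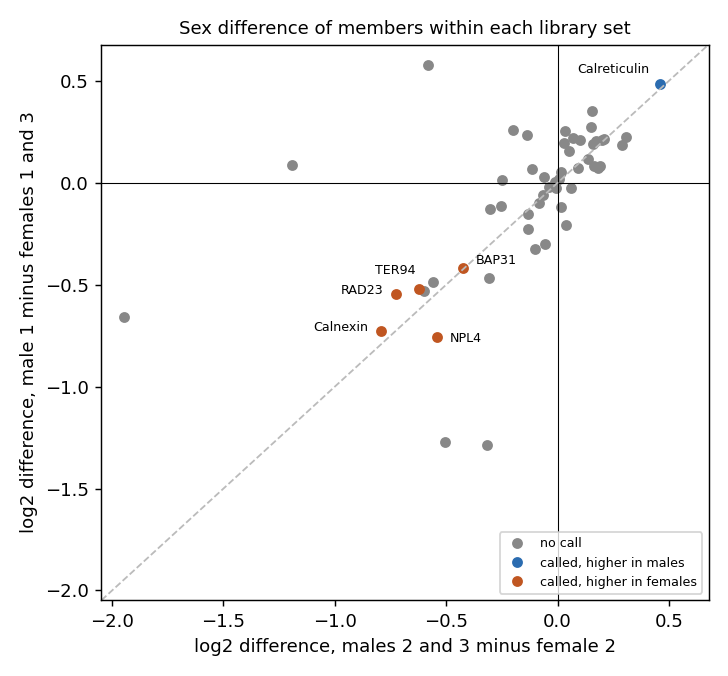
Log2 difference between the sexes for the 53 members tested within males 2 and 3 against female 2 (horizontal axis) and within male 1 against females 1 and 3 (vertical axis), with a dashed line of equality. The 6 called members lie near the line, whereas the points farthest from it are low sequences such as those of Sec61 alpha and SEC62.

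What the members share beyond the rule is limited. Of the 54, 32 carry a gene ontology component naming the endoplasmic reticulum and 4 carry no gene ontology term at all. RAD23 and SKP1 are known as proteins of the cytosol and nucleus. The pathway Protein export claims 7 of them and Phagosome 6. They stand for 43 orthology numbers, 8 of which have more than 1 sequence. The median deviation of the 53 tested members from their own means lay between -0.02 and 0.03 in each of the 6 libraries. Female 1 was the library most often at an extreme, highest for 14 members and lowest for 15.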

How the data were processed

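The deposited table gives FPKM for each assembled sequence and library, calculated by the authors, beside their annotation. Trimmomatic, HTSeq and R 3.2.0 were used, per the submitters' processing notes, which assign them no step. Sequence names have the form of the Trinity assembler, and for assembly, alignment and annotation the settings were not given in the sources used here. Low values were searched for steps of whole reads, and at most 6.45% of the ratios between libraries fell within 0.02 log2 units of each other. Depth is therefore unknown, no count test was run and no counting interval is given.

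A pseudocount of 1 was added to FPKM before taking log2. The 35198 sequences with at least 1 FPKM in at least 3 libraries entered one fit in limma 3.58.1 (R 4.3.3) with a variance trend and no block. Tests were two-sided, and p-values were adjusted by the Benjamini-Hochberg method across that whole table. The script was tested on simulated data. Alternatives covered the pseudocount, filter, scaling, shrinkage, weights, library sets, replicate block and each library left out. Members, lists and alternatives were chosen with earlier results of these data known, and the differences within library sets were added after the data were seen. Roles followed orthology numbers. The rule for named members took all called ones, the most abundant of each of 8 role lists, those of the unfolded protein response and the 4 uncalled ones with the largest change. The rest were described to account for the whole list. Sequences outside the pathway that are named without a call were chosen after their values were seen.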

Additional observations from a re-analysis of the deposited data

How the results depend on the processing

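Calnexin, NPL4 and RAD23 kept their direction and call under all 16 alternatives. The call higher in males became 0 with median-of-ratios scaling, with the library sets as a term and with the replicate block, and ranged from 0 to 2 with each library left out. The calls higher in females became 3 with the library sets, and ranged from 3 to 6 with each library left out. The 2501 calls over all sequences became 1136 with the library sets and ranged from 822 to 1776 with each library left out. The cause of these shifts was not tested. With median-of-ratios scaling 1324 sequences were higher in males and 1330 in females, against 1549 and 952 as reported. Values near 0 changed sign: BiP was -0.049 with median-of-ratios scaling and -0.056 to 0.11 with each library left out, and isomerase A6 was 0.0080 with a common sum, 0.013 with the library sets, 0.019 with array weights and -0.096 to 0.10 with each library left out. With each library left out the partial SEC62 sequence ranged from -1.11 to 0.19, and with a pseudocount of 0.1 it was -1.54. Pseudocounts of 0.1 and 0.5, the other filters, the common sum, robust shrinkage and array weights left 1 member call higher in males and 5 in females.

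Males and females share replicate numbers, and the main fit did not take them as pairs. Deviations of same-numbered libraries correlated at 0.11, 0.12 and -0.05, and those of other pairs at -0.18 to 0.09. Deviations from a mean of 3 libraries are tied to each other, so these correlations cannot decide whether the libraries are paired. With the replicate block, 631 sequences, 0 members higher in males and 3 members higher in females were called. Of the 5 calls found by name outside the pathway, the second TER94 remained with the block, and SAR1b (adjusted p = 0.064), SEC62, Calpain-A and Calpain-C did not. Of the 9 among the dropped sequences, the block ended those of DnaJ A2 and DnaJ C1. Depth is unknown, so no counting error can be given for the low sequences.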
